A study of Homo sapiens with 18 samples.

Results

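The 10 genes *UBE2C*, *UBE2S*, *CDC20*, *FZR1*, *PTTG1*, *FBXO5*, *MAD2L1*, *BUB1*, *BUB1B* and *TTK* act in the anaphase-promoting complex and the spindle assembly checkpoint, and their mRNA was compared across sorted cells of a human line that had or had not been made to fail division. They were chosen by symbol among the 57773 Ensembl gene identifiers of the deposited expression table, and all 10 were found. The cells were hTERT-RPE1, a telomerase-immortalised, near-diploid line derived from the pigment epithelium of the retina. The study asked how gene expression differs between cells that became tetraploid by 2 routes, failed cytokinesis or Aurora kinase inhibition, and cells that did not. The 6 groups, of 3 biological replicates each, were cytochalasin D 4N, cytochalasin D 2N, ZM447439 4N, ZM447439 2N, untreated 4N and untreated 2N. Cytochalasin D blocks actin polymerisation and with it cytokinesis, and ZM447439 inhibits Aurora kinases. The cells of all groups were grown in 10% serum, labelled with Hoechst dye (2 µg/mL, 60 min) and sorted by DNA content. The labels carry 1 treatment text, ZM447439 at 2.5 µM for 24 h, on every library, and neither dose nor duration of cytochalasin D is stated in them. DNA content does not separate an untreated cell that has replicated its genome from a tetraploid cell in G1, so the 4N gate can hold both.

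The anaphase-promoting complex (APC/C) is a ubiquitin ligase that ends mitosis by marking securin and mitotic cyclins for destruction. UBE2C starts the ubiquitin chains and UBE2S extends them, and the coactivators CDC20 and FZR1 (CDH1) bring substrates to the complex, CDC20 in mitosis and FZR1 from mitotic exit through G1. Securin, encoded by *PTTG1*, is a substrate, and FBXO5 (EMI1) inhibits the complex during S and G2 phase. The spindle checkpoint holds CDC20 back while kinetochores are unattached: the kinase TTK (MPS1) starts the signal, BUB1 gathers checkpoint proteins at kinetochores, and MAD2L1 (MAD2) and BUB1B (BUBR1) bind CDC20. Many genes of this system are transcribed mainly in G2 and mitosis through a promoter element called CHR, the cell cycle genes homology region, which is often found beside CCAAT boxes.

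Because most of these genes moved together, 1 CHR match of each promoter that holds one is shown. RefSeq (GRCh38.p14) gave windows from 250 bases before to 50 bases after an annotated start for 8 of the 10 genes, and *UBE2C* and *TTK* had no entry. The letters TTTGAA or TTCGAA, on either strand, occurred in at least 1 window of 6 of the 8 genes, beside 19.5% of the 27305 genes with a window. CCAAT, on either strand, occurred for 6 of the 8 genes, beside 39.7% of genes. By window the counts were 6 and 7 of the 11 windows of these genes, beside 16.4% and 34.6% of all 35116 windows. In the following 30-base stretches, written 5′ to 3′ on the strand of the gene, capitals mark the CHR letters.
CDC20: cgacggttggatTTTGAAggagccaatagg
BUB1: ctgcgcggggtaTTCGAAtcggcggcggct
BUB1B: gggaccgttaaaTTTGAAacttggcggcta
MAD2L1: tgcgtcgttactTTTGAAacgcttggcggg
FBXO5: ttaggcaccaaaTTCAAAgattttaaaagt
FZR1: ttcctgtattgaTTTGAAtcgcgggagacg
The *CDC20* stretch lies at chr1:43358904-43358933 on the plus strand, with its CHR letters 65 to 60 bases before the start. A CCAAT follows within the same stretch, and a second CHR match of *CDC20*, on the opposite strand, lies 178 to 173 bases before the start. In *BUB1* (chr2:110678045-110678074, minus strand) the letters begin at base 2 after the start, and in *MAD2L1* (chr4:120066807-120066836, minus strand) at base 25. The *BUB1B* stretch is at chr15:40161034-40161063 on the plus strand, 23 to 18 bases before the start. For *FBXO5* (chr6:152983064-152983093, minus strand) the match lies on the opposite strand at the second of its 2 annotated starts, and for *FZR1* (chr19:3506073-3506102, plus strand) it lies 226 to 221 bases before the first of 2. The match is a description of letters and shows no binding. *PTTG1* and *UBE2S* held CCAAT but no CHR letters in their windows. A window may hold such letters without the gene behaving as the others do: *FZR1* has CHR letters and, as described below, was nearly level outside untreated 4N cells.

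Levels are RPKM, reads scaled by library size and gene length. The steps between low values showed that the length used was the genomic span of a gene, introns included, so RPKM here understates genes with long introns. For comparison between genes, reads were rescaled to exon length, which leaves ratios between groups as they are. The rescaling takes every read as exonic, which is not known. Library sizes implied by these steps ran between 51132197 and 78282367 reads; the 10 genes held between 138 reads, for *TTK* in a cytochalasin D 2N library, and 19730 reads, for *UBE2S*. In each treatment 1 replicate stood apart from its mates in both sorts, namely untreated 3, cytochalasin D 1 and ZM447439 1, so results are given with and without these 6 libraries where they differ. They were picked for their distance from their mates in these same data, so leaving them out narrows the spread by that choice. The adjusted p of a fit without them is therefore a description and lends a call no support. The keratin genes *KRT18* (39.1 to 121 RPKM) and *KRT8* (4.38 to 13) and the mesenchymal gene *VIM* (369 to 908) were expressed. Of 8 pigment epithelium genes, *BEST1* (47.1 to 141), *OTX2* (2.26 to 4.13) and *PMEL* (0.442 to 4.64) carried reads. The kit did not mark strand, so reads of a gene on the opposite strand may be part of these values. Whether these genes were themselves expressed at such levels is therefore uncertain. *RPE65*, *RLBP1*, *TYR* and *SERPINF1* stayed at or below 0.236 RPKM in every library. *MITF* had 0.124 to 0.168 RPKM over its span. Rescaled to exon length its mean was 4.81, beside 10.1 for *OTX2* and 9.61 for *PMEL*. Reads from its introns would raise that value, so its expression is uncertain. Of 4 fibroblast genes, *COL1A1* (2.16 to 19.5) and *PDGFRB* (0.956 to 7.75) were present and *COL1A2* and *DCN* stayed at or below 0.303, and 6 blood cell genes stayed at or below 0.434.

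All 10 genes were highest in untreated 4N cells, where every library exceeded every library of the other 5 groups, as it did for 18% of all tested genes. On the exon scale *UBE2C* led there with a mean of 161 (reads per exon kilobase, scaled to library size as RPKM is). *CDC20* (153) and *UBE2S* (115) followed, and *FBXO5* was lowest at 9.50. Over the genomic span *CDC20* led instead, with 73.2 RPKM against 47.4 for *UBE2C*, so the order of these genes depends on the scale. The exon scale gave 66.6 for *CDC20* and 5.14 for *TTK*, the highest and lowest, in untreated 2N cells. In cytochalasin D 2N cells no gene exceeded 12.3, the value of *UBE2S*, and *TTK* was at 0.715. Tests used limma on log2(RPKM + 0.5) over the 13037 genes that averaged 0.5 RPKM or more, a filter all 10 genes passed, with Benjamini-Hochberg adjusted p under 0.05. The filter took the mean over all 18 libraries. *TTK* passed it at 0.703 RPKM, with 2.74 in untreated 4N cells and at most 0.61 in any other group. Without the filter *TTK* passed for untreated 4N over 2N cells (adjusted p = 1.5e-06) and not for ZM447439 4N over 2N cells (0.093). The pseudocount shrinks the changes of *TTK*, *BUB1B*, *BUB1* and *FBXO5*, whose RPKM are low, so ratios of mean RPKM are given beside the tested log2 changes.

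**Figure D1:**
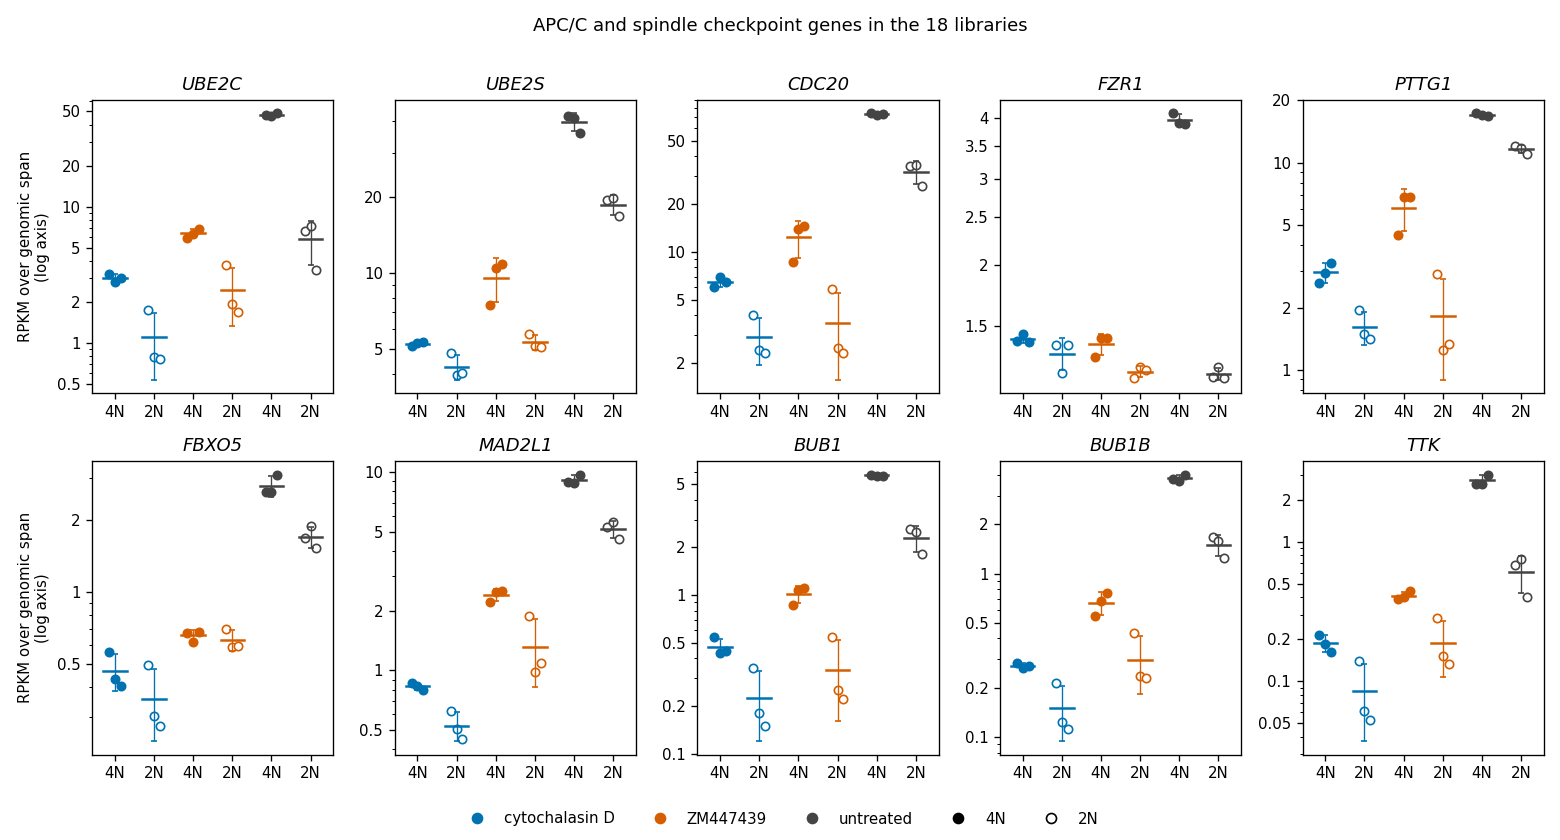
RPKM over the genomic span (log axes with a separate range for each gene) of the 10 genes in the 18 libraries; filled points are 4N and open points 2N libraries, horizontal lines are group means and bars 1 SD (n = 3). Untreated 4N libraries lie highest for every gene, and FZR1 is nearly level across the other 5 groups, between 1.17 and 1.44 RPKM.

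Untreated 4N cells were compared with untreated 2N cells, which asks how the machinery changes over the normal cycle. Of the 10 genes 9 rose, beside 12.9% of all tested genes rising, and none fell. Over all tested genes 1679 were higher and 593 lower, or 1156 and 779 after median-ratio rescaling of the libraries. The counts and levels come from bulk RNA, in which fewer cells of a cycle phase and less RNA per cell cannot be told apart. The chain-starting enzyme *UBE2C* (ENSG00000175063) changed most. It had 47.1, 46.6 and 48.4 RPKM in untreated 4N cells, against 6.66, 7.28 and 3.45 RPKM in untreated 2N cells. The 4N libraries were nearly alike, whereas the third 2N library was lower than its mates, and the groups were far apart. The ratio of means was 8.17 and the log2 change 2.99 (SE 0.28, adjusted p = 4.0e-06).

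Its partner *UBE2S* (ENSG00000108106), the chain-extending enzyme, had 42.0, 41.2 and 36.1 RPKM in untreated 4N cells, against 19.5, 19.9 and 16.8 RPKM in untreated 2N cells, a ratio of 2.12 (log2 change 1.07, SE 0.12, adjusted p = 2.4e-05). The groups did not overlap. The span of *UBE2S* overlaps *RPL28* on the opposite strand over 43.6% of its length, the kit did not mark strand, and the processed pseudogenes *UBE2SP1* and *UBE2SP2* carried means of 35.6 and 23.4 RPKM. How reads were divided among these copies is not known, so the level of *UBE2S* is uncertain.

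Of the coactivators, *CDC20* (ENSG00000117399) had 74.2, 72.2 and 73.3 RPKM in untreated 4N cells, against 34.9, 35.0 and 25.9 RPKM in untreated 2N cells. All 4N values lay above all 2N values, and the ratio was 2.29 (log2 change 1.20, SE 0.28, adjusted p = 0.0076). *FZR1* (ENSG00000105325) had 4.08, 3.91 and 3.88 RPKM in untreated 4N cells, against 1.18, 1.24 and 1.18 RPKM in untreated 2N cells. Its libraries were tightly grouped, and its standard error, which draws on all 6 groups, was the smallest of the 10 genes (ratio 3.30, log2 change 1.39, SE 0.04, adjusted p = 1.8e-10). The mRNA of the coactivator known for its work in G1 was thus more abundant in the untreated 4N sort.

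The securin gene *PTTG1* (ENSG00000164611) was the 1 gene of the 10 that did not pass. It had 17.3, 17.1 and 16.7 RPKM in untreated 4N cells, against 12.03, 11.8 and 11.1 RPKM in untreated 2N cells. The groups did not overlap and the ratio was 1.46, with a log2 change of 0.53 (SE 0.21, adjusted p = 0.10). It passed in a fit of the untreated libraries alone (SE 0.04, adjusted p = 0.0018) and without the 6 libraries (0.51, SE 0.05, adjusted p = 0.00017). *FBXO5* (ENSG00000112029), the inhibitor of the complex, had 2.63, 2.62 and 3.11 RPKM in untreated 4N cells, against 1.69, 1.89 and 1.53 RPKM in untreated 2N cells, with no overlap (ratio 1.64, log2 change 0.58, SE 0.10, adjusted p = 0.00066).

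The 4 checkpoint genes rose by different amounts. *TTK* (ENSG00000112742), the kinase that starts the signal, had 2.60, 2.60 and 3.02 RPKM in untreated 4N cells, against 0.676, 0.746 and 0.404 RPKM in untreated 2N cells. Its ratio of 4.50 was the second highest of the 10 (log2 change 1.56, SE 0.11, adjusted p = 3.6e-07). *BUB1B* (ENSG00000156970) and *BUB1* (ENSG00000169679) had ratios of 2.56 and 2.47 and passed, with log2 changes of 1.12 (SE 0.10) and 1.16 (SE 0.14). *MAD2L1* (ENSG00000164109) had a ratio of 1.77 (log2 change 0.77, SE 0.13, adjusted p = 0.0010). In no checkpoint gene did the 4N and 2N libraries overlap, beside 28.5% of tested genes higher without overlap.

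Within replicate numbers the untreated 4N over 2N ratio of *UBE2C* was 7.06, 6.41 and 14.03, and that of *TTK* 3.85, 3.48 and 7.48. The third pair stood above the others for both genes. It did so too for *CDC20* (2.83, against 2.13 and 2.06), *BUB1* (3.09, against 2.22 and 2.28) and *BUB1B* (3.22, against 2.26 and 2.35). The same held for *MAD2L1* (2.11, against 1.67 and 1.57) and *FBXO5* (2.03, against 1.56 and 1.39). For *FZR1* the ratios were 3.46, 3.16 and 3.30, for *PTTG1* 1.44, 1.45 and 1.51, and for *UBE2S* 2.155, 2.072 and 2.149. None of these genes set the third pair apart.

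**Figure D2:**
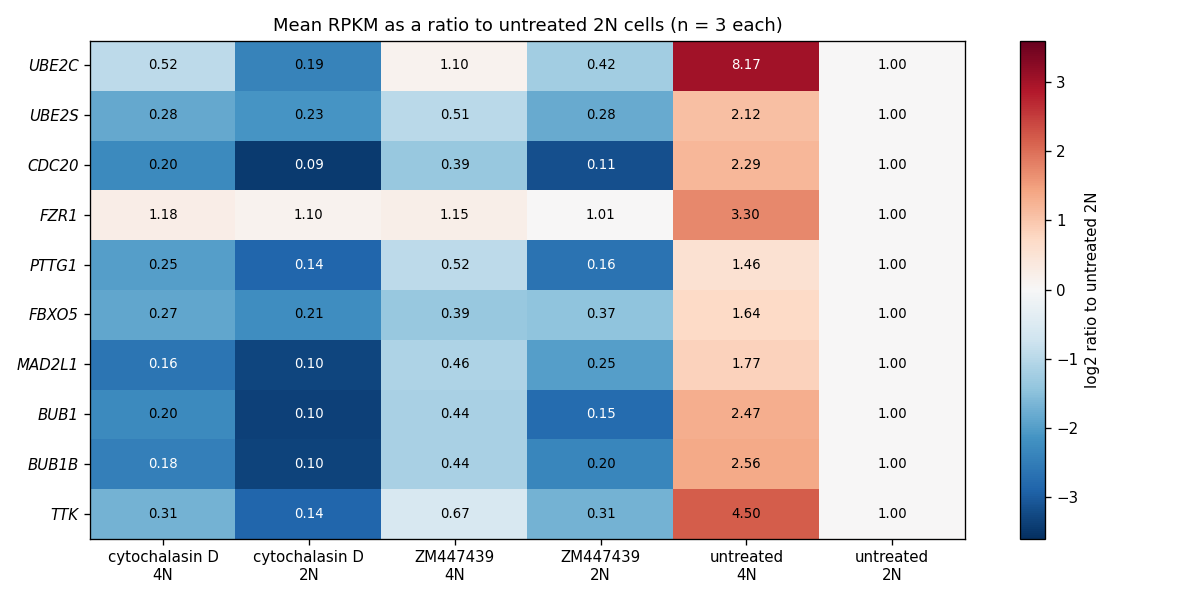
Mean RPKM of each gene in each group divided by its mean in untreated 2N cells (printed ratios, n = 3 each; the colour is the log2 of the ratio). The untreated 4N column is above 1 for all genes, from 1.46 to 8.17, and in the 4 drug columns all genes but FZR1 are below 1, with UBE2C in ZM447439 4N cells (1.10) as the exception.

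Cytochalasin D 4N cells were then compared with untreated 4N cells, and all 10 genes fell, beside 44.4% of all tested genes. Over all tested genes 3398 were higher and 5793 lower, or 4448 and 4562 after median-ratio rescaling. *UBE2C* had 3.19, 2.80 and 2.98 RPKM in cytochalasin D 4N cells, which is 15.85-fold lower than in untreated 4N cells (log2 change -3.78, SE 0.28, adjusted p = 1.6e-08). *CDC20* had 6.02, 6.99 and 6.44 RPKM, 11.3-fold lower (log2 change -3.40, SE 0.28). The checkpoint genes were lower by similar ratios: *TTK* 14.6-fold, *BUB1B* 14.1-fold, *BUB1* 12.1-fold and *MAD2L1* 11.0-fold. Smaller ratios were found for *UBE2S* (7.55-fold lower), *FBXO5* (5.95-fold) and *PTTG1* (5.75-fold). *FZR1* fell least, with 1.40, 1.44 and 1.39 RPKM in cytochalasin D 4N cells, 2.80-fold lower (log2 change -1.22, SE 0.04, adjusted p = 1.6e-11). For none of the 10 genes did the groups overlap, beside 46% of tested genes lower without overlap.

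ZM447439 4N cells against untreated 4N cells gave the same direction with smaller ratios for 9 of the genes. All 10 fell, beside 35.5% of all tested genes (2560 higher and 4630 lower, or 3365 and 3665 after rescaling). *UBE2C* had 5.93, 6.31 and 6.87 RPKM in ZM447439 4N cells, 7.44-fold lower than in untreated 4N cells (log2 change -2.80, SE 0.28, adjusted p = 1.0e-06). *TTK* was 6.69-fold lower, *CDC20* 5.93-fold, *BUB1B* 5.79-fold and *BUB1* 5.60-fold. The lowest ratios belonged to *PTTG1* (2.80-fold lower) and *FZR1* (2.87-fold lower). *PTTG1* had 4.50, 6.84 and 6.87 RPKM in ZM447439 4N cells, the first library being below the other two, and its log2 change was -1.44 (SE 0.21, adjusted p = 4.4e-05). On RPM, reads scaled by library size alone, the log2 changes of the low genes were larger, for example -2.70 for *TTK* in place of -1.83, and passed as well.

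In 2N cells 9 of the genes fell with either drug, beside 39.5% of tested genes falling with cytochalasin D and 32.5% with ZM447439. The exception in both was *FZR1*. It had 1.37, 1.20 and 1.37 RPKM in cytochalasin D 2N cells, and 1.17, 1.23 and 1.22 RPKM in ZM447439 2N cells, against 1.18, 1.24 and 1.18 RPKM in untreated 2N cells. These ranges overlapped, and the log2 changes were 0.10 (SE 0.04, adjusted p = 0.060) with cytochalasin D and 0.01 (SE 0.04, adjusted p = 0.87) with ZM447439. With cytochalasin D it passed as higher on RPM (0.13, adjusted p = 0.045), after median-ratio rescaling (0.17, adjusted p = 0.0022) and without the second cytochalasin D 2N library (0.14, adjusted p = 0.0087).

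Among the others, *CDC20* fell most in 2N cells. It had 4.02, 2.41 and 2.32 RPKM in cytochalasin D 2N cells, 10.95-fold lower than in untreated 2N cells (log2 change -3.27, SE 0.28). In ZM447439 2N cells it had 5.84, 2.50 and 2.32 RPKM, 8.99-fold lower (log2 change -3.09, SE 0.28). With both drugs the first library was well above its mates and still far below every untreated 2N library. *PTTG1* was 7.18-fold lower in cytochalasin D 2N cells and 6.36-fold lower in ZM447439 2N cells, and *MAD2L1* 9.82-fold and 3.92-fold. By ratio *UBE2C* moved least with ZM447439 among the 9, 2.38-fold lower. Its 3.72, 1.92 and 1.68 RPKM in ZM447439 2N cells overlapped the 6.66, 7.28 and 3.45 RPKM of untreated 2N cells (log2 change -1.10, SE 0.28, adjusted p = 0.0035). *UBE2C* was 3.87-fold lower with no overlap without the 6 libraries (log2 change -1.70, SE 0.07), and *FBXO5*, 3.02-fold lower, moved least by ratio; *CDC20* was then 14.5-fold lower with ZM447439.

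**Figure D3:**
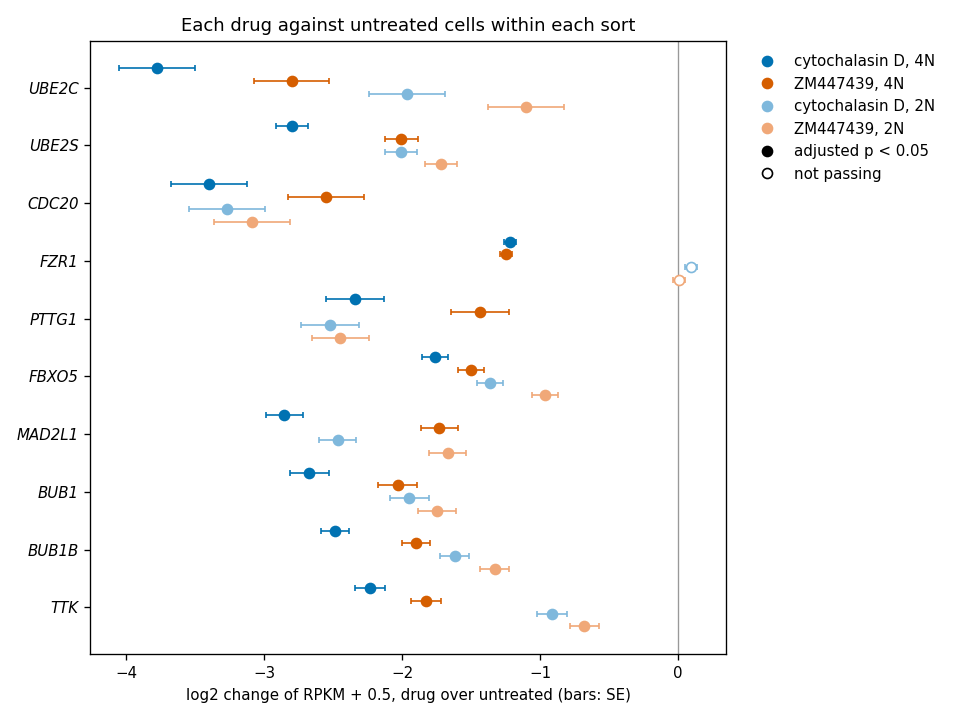
Log2 change of RPKM + 0.5 (bars: SE) with each drug against untreated cells, in 4N cells (dark) and 2N cells (light); filled points passed at adjusted p under 0.05. Only the 2 FZR1 points of the 2N sort lie at 0 without passing, at 0.10 and 0.01.

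Next, 4N cells were compared with 2N cells under each drug, and the size of that difference was compared with its size in untreated cells by an interaction term. Under cytochalasin D none of the 10 genes passed, and none of the 13037 tested genes did (0%). By limma, 682 genes had an unadjusted p under 0.05, near the share of 0.05 anticipated where no gene differs. The mean of each of the 10 genes was higher in the 4N sort, beside 46.6% of tested genes. The libraries did not overlap for 9 of them, all but *FBXO5*, beside 5.61% of tested genes higher without overlap. *UBE2C* had 3.19, 2.80 and 2.98 RPKM in cytochalasin D 4N cells, against 1.76, 0.789 and 0.763 RPKM in cytochalasin D 2N cells, a ratio of 2.71 (log2 change 1.17, SE 0.28, adjusted p = 0.53). The first 2N library lay well above its mates and below every 4N library. Without the 6 libraries 9 genes rose, with *FZR1* the exception, beside 3.65% of tested genes, and the log2 change of *UBE2C* was 1.41 (SE 0.06, adjusted p = 4.2e-05), but each of these groups then held only 2 libraries.

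Under ZM447439, 8 of the genes rose in 4N over 2N cells, beside 5.21% of all tested genes (679 higher and 319 lower, or 574 and 443 after rescaling). *CDC20* had 8.66, 13.9 and 14.5 RPKM in ZM447439 4N cells, against 5.84, 2.50 and 2.32 RPKM in ZM447439 2N cells. The sorts were close in the first pair and far apart in the other two, with ratios of 1.48, 5.58 and 6.23 by replicate number. Over all 3 the ratio was 3.48 (log2 change 1.74, SE 0.28, adjusted p = 0.0033). *PTTG1* behaved likewise, with ratios of 1.55, 5.47 and 5.16 by number, 3.32 over all (log2 change 1.54, SE 0.21, adjusted p = 0.0018). The *BUB1* ratio was 2.99, that of *UBE2C* 2.61, *BUB1B* 2.23, *TTK* 2.17, *MAD2L1* 1.82 and *UBE2S* 1.804, all passing. The ratios of *CDC20*, *PTTG1* and *BUB1* were 5.89, 5.31 and 4.61 without the 6 libraries. A fit of the 6 ZM447439 libraries alone called none of the 10 and no other gene. *TTK* did not pass when replicate number was a block (adjusted p = 0.056) or without the filter (0.093). Leaving out replicate 2 or 3 of either ZM447439 sort ended the calls of *UBE2C* and *TTK* (adjusted p = 0.062 to 0.17), and leaving out replicate 2 or 3 of the 2N sort ended that of *MAD2L1* (adjusted p = 0.050 and 0.052).

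*FBXO5* and *FZR1* did not pass under ZM447439. *FBXO5* had 0.674, 0.621 and 0.685 RPKM in ZM447439 4N cells, against 0.703, 0.589 and 0.597 RPKM in ZM447439 2N cells, and the libraries were interleaved (ratio 1.05, log2 change 0.04, SE 0.10, adjusted p = 0.85). *FZR1* had 1.30, 1.42 and 1.41 RPKM in ZM447439 4N cells, against 1.17, 1.23 and 1.22 RPKM in ZM447439 2N cells. Its groups did not overlap, but the ratio was 1.14 (log2 change 0.14, SE 0.04, adjusted p = 0.070), and it passed without the first 4N library (0.17, adjusted p = 0.035) or without the 6 libraries (0.15, adjusted p = 0.033). It also passed on RPM with the replicate block (0.19, adjusted p = 0.030).

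**Figure D4:**
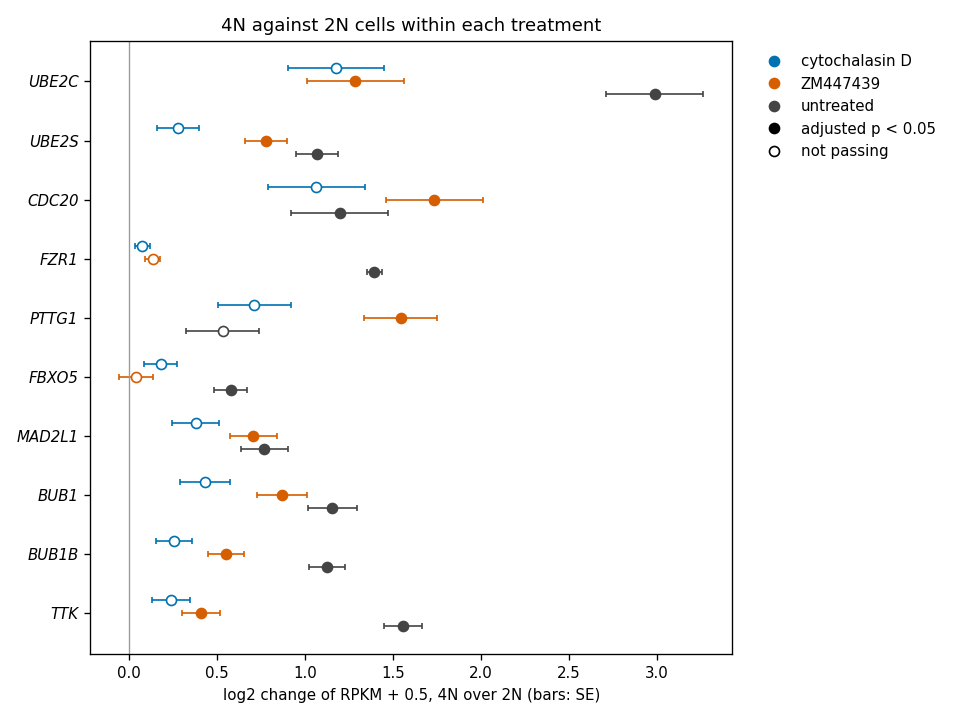
Log2 change of RPKM + 0.5 in 4N over 2N cells (bars: SE) within each treatment; filled points passed at adjusted p under 0.05. UBE2C (2.99), TTK (1.56) and FZR1 (1.39) are displaced to the right in untreated cells, and CDC20 (1.74) and PTTG1 (1.54) in ZM447439-treated cells.

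The interaction test compared these differences directly. For cytochalasin D with untreated cells 6 genes passed and all 6 had a smaller 4N over 2N difference under the drug, beside 6.04% of tested genes in that direction (235 larger and 788 smaller, or 313 and 521 after rescaling). For ZM447439 with untreated cells 5 passed in that direction, beside 6.58% of tested genes, and *PTTG1* passed in the other, beside 3.52% (459 larger and 858 smaller, or 540 and 649 after rescaling). *FZR1* gave the clearest value in both, -1.32 (SE 0.06, adjusted p = 4.4e-08) with cytochalasin D and -1.26 (SE 0.06, adjusted p = 8.4e-08) with ZM447439. For *UBE2C* the interaction was -1.81 (SE 0.39, adjusted p = 0.010) with cytochalasin D and -1.70 (SE 0.39, adjusted p = 0.014) with ZM447439. *UBE2S* passed with cytochalasin D (-0.79, SE 0.17, adjusted p = 0.0096) and not with ZM447439 (-0.29, adjusted p = 0.31), and the difference between the drugs did not pass either (-0.50, adjusted p = 0.75).

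The *PTTG1* interaction with ZM447439 was 1.01 (SE 0.30, adjusted p = 0.044). It did not pass with replicate number as a block (adjusted p = 0.097) and passed in 2 of the 12 fits that left out 1 library, those without the first ZM447439 library of either sort. Without the 6 libraries it was 1.53 (adjusted p = 1.4e-05), in groups of 2 whose spread the choice of libraries had narrowed. The checkpoint genes *TTK*, *BUB1B* and *BUB1*, and *FBXO5*, gave interactions whose calls depended on the scale. *TTK* had -1.32 with cytochalasin D and -1.15 with ZM447439 (adjusted p = 0.00015 and 0.00050), *BUB1B* -0.87 and -0.57 (0.0021 and 0.023), *BUB1* -0.72 with cytochalasin D (0.039) and *FBXO5* -0.54 with ZM447439 (0.022). On RPM without the block none of these passed: *TTK* had -1.06 and -1.05 (adjusted p = 0.15 and 0.12), and *BUB1* with cytochalasin D only -0.21 (adjusted p = 0.84). On RPM with the block, an alternative chosen after seeing the data, *TTK* passed with both drugs (adjusted p = 0.045 and 0.039) and *FBXO5* with ZM447439 (0.0068), while *BUB1* and *BUB1B* did not. With a pseudocount of 0.1 *TTK* passed with both as well (-1.37 and -1.18, adjusted p = 0.015 and 0.029). The calls that passed on RPKM and RPM, each without the block, were those of *FZR1* and *UBE2C* with either drug, *UBE2S* with cytochalasin D and *PTTG1* with ZM447439. With the block the *BUB1B* interaction with ZM447439 did not pass (adjusted p = 0.050) and the *FBXO5* interaction with cytochalasin D did (-0.40, adjusted p = 0.044, against 0.094 without the block). Leaving out the third untreated 2N library ended the ZM447439 calls of *BUB1B* (adjusted p = 0.057) and *FBXO5* (0.059), the second of which was also lost without untreated 4N replicate 3 or ZM447439 4N replicate 2. The *BUB1* call held in 4 of the 12 fits that left out 1 library. Without the 6 libraries all 10 genes passed with cytochalasin D, 8 with a smaller and 2 with a larger difference than in untreated cells, beside 15.7% and 5.52% of tested genes. With ZM447439 5 then had a smaller and 3 a larger one, beside 24.5% and 12.9%.

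The drugs were compared with each other within each sort, with ZM447439 as the second group. In 4N cells 9 of the genes were lower with cytochalasin D than with ZM447439, beside 27.8% of tested genes (2050 higher and 3622 lower, or 2758 and 2834 after rescaling). *MAD2L1* differed most. It had 0.861, 0.839 and 0.795 RPKM in cytochalasin D 4N cells, against 2.22, 2.49 and 2.50 RPKM in ZM447439 4N cells, with no overlap (2.89-fold lower, log2 change -1.12, SE 0.13, adjusted p = 1.9e-05). *BUB1B* was 2.43-fold lower, *TTK* 2.19-fold, *BUB1* 2.15-fold, *UBE2C* 2.13-fold and *PTTG1* 2.05-fold. *FZR1* had 1.40, 1.44 and 1.39 RPKM in cytochalasin D 4N cells, against 1.30, 1.42 and 1.41 RPKM in ZM447439 4N cells, which overlapped (log2 change 0.03, SE 0.04, adjusted p = 0.65). The calls of *CDC20* (log2 change -0.85, SE 0.28, adjusted p = 0.022) and *FBXO5* (-0.26, SE 0.10, adjusted p = 0.036) were lost in 4 and 5 of the 6 fits that left out 1 library.

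In 2N cells *MAD2L1*, *FBXO5*, *UBE2C* and *BUB1B* were lower with cytochalasin D than with ZM447439, 4 of the 10 beside 23.2% of tested genes (1783 higher and 3022 lower, or 2243 and 2411 after rescaling). *MAD2L1* had 0.623, 0.508 and 0.451 RPKM in cytochalasin D 2N cells, against 1.88, 0.984 and 1.09 RPKM in ZM447439 2N cells (log2 change -0.80, SE 0.13, adjusted p = 0.00046). *FBXO5* had 0.497, 0.304 and 0.276 RPKM in cytochalasin D 2N cells, against 0.703, 0.589 and 0.597 RPKM in ZM447439 2N cells (log2 change -0.40, SE 0.10, adjusted p = 0.0045). Neither gene's groups overlapped. *CDC20* and *PTTG1* overlapped in this sort, with log2 changes of -0.18 (SE 0.28) and -0.08 (SE 0.21), and both turned positive without the first ZM447439 2N library (0.20 and 0.23), which also ended the calls of *UBE2C* (adjusted p = 0.11) and *BUB1B* (0.17). Both calls were also lost without replicate 2 or 3 of the cytochalasin D 2N cells. The 4N over 2N difference did not differ between the drugs for any of the 10 genes or any tested gene (0%). By limma, 753 of the 13037 genes had an unadjusted p under 0.05, little above the share of 0.05 anticipated where no gene differs. Without the 6 libraries 7 of the 10 genes passed, all with a smaller difference under cytochalasin D, beside 6.68% of tested genes, and without the first ZM447439 2N library alone 2 did, *PTTG1* (-1.14, adjusted p = 0.015) and *MAD2L1* (-0.54, adjusted p = 0.031).

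Drug-treated 4N cells were also set against untreated 2N cells, since both can hold cells in G1. Cytochalasin D 4N cells had 9 genes lower, beside 40.2% of tested genes, and *FZR1* higher, beside 26.4% (3443 higher and 5243 lower, or 4343 and 4339 after rescaling). The lowest ratio was that of *MAD2L1*, 6.23-fold lower, and the smallest fall that of *UBE2C*, 1.94-fold (log2 change -0.79, SE 0.28, adjusted p = 0.020), a call lost without the first or second untreated 2N or the second cytochalasin D 4N library. In ZM447439 4N cells 7 genes were lower, beside 27.3%, and *FZR1* was higher (ratio 1.15, adjusted p = 0.013), beside 18%, a call lost without replicate 2 or 3 of the ZM447439 4N cells (adjusted p = 0.053 and 0.051). *UBE2C* had 5.93, 6.31 and 6.87 RPKM in ZM447439 4N cells, against 6.66, 7.28 and 3.45 RPKM in untreated 2N cells, which overlapped (log2 change 0.18, SE 0.28, adjusted p = 0.62), and the sign turned without the third untreated 2N library (-0.12). *TTK* had 0.386, 0.404 and 0.440 RPKM in ZM447439 4N cells, against 0.676, 0.746 and 0.404 RPKM in untreated 2N cells (log2 change -0.27, SE 0.11, adjusted p = 0.054), and passed with replicate number as a block (adjusted p = 0.046) or without the third untreated 2N library (-0.41, adjusted p = 0.0026).

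The balance of the coactivators is given as a description on the exon scale. *CDC20* over *FZR1* was 1.62 to 1.83 in cytochalasin D 4N, 0.637 to 1.10 in cytochalasin D 2N, 2.52 to 3.86 in ZM447439 4N, 0.720 to 1.88 in ZM447439 2N, 6.86 to 7.14 in untreated 4N and 8.31 to 11.2 in untreated 2N libraries. Every drug-treated library was below every untreated one, and untreated 2N libraries were above untreated 4N libraries. For the ubiquitin-conjugating enzymes, *UBE2C* over *UBE2S* was above 1 in untreated 4N libraries alone, at 1.32 to 1.59, and at most 0.940 elsewhere. *FBXO5* over *FZR1* was 0.803 to 0.940 in untreated 2N libraries and between 0.124 and 0.494 in the other groups.

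Other genes of the pathway were taken from lists that hold none of the 10. Of 9 further spindle checkpoint genes 7 were tested. All 7 fell with either drug in 4N cells, beside 44.4% of tested genes with cytochalasin D and 35.5% with ZM447439. The median log2 change was -1.93 with cytochalasin D and -1.54 with ZM447439, beside -0.13 and -0.07 over all genes. The same 7 rose in untreated 4N over 2N cells, beside 12.9% of tested genes. Among the 7 were *BUB3* (1.18, SE 0.09), which binds BUB1 and BUBR1, and *KNL1* (1.11, SE 0.07), their kinetochore scaffold. *SPDL1*, an adaptor for dynein at kinetochores, fell by 2.76 (SE 0.15) and *TRIP13*, an ATPase that remodels MAD2, by 2.53 (SE 0.10) on the log2 scale in cytochalasin D 4N cells against untreated 4N cells.

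The core subunits of the APC/C changed far less. Of 14 listed 11 were tested. In cytochalasin D 4N against untreated 4N cells 9 fell, beside 44.4% of tested genes, and *ANAPC16* rose (0.61, SE 0.05). With ZM447439 8 fell, beside 35.5%, and *ANAPC16* rose (0.36, SE 0.05). The medians were -0.39 and -0.20, beside -0.13 and -0.07 over all genes. The subunit genes that fell most were *ANAPC7*, by 0.96 with cytochalasin D and 0.50 with ZM447439 (SE 0.07 each), and *CDC27*, whose product binds the coactivators, by 0.94 and 0.70 (SE 0.04 each). In untreated 4N over 2N cells 4 subunits rose, beside 12.9% of tested genes, with *CDC27* (0.61, SE 0.04) and *ANAPC13* (0.30, SE 0.06) first. The other 7 did not pass. Known APC/C substrates moved like the 10 genes: of 20 tested, 20 fell with either drug in either sort, beside 32.5% to 44.4% of tested genes. In 4N cells *RRM2*, a subunit of ribonucleotide reductase, fell by 3.97 with cytochalasin D (SE 0.20), the most of the list. The mitotic kinase gene *PLK1* fell by 2.69 with ZM447439 (SE 0.25). *CCNA2*, which encodes cyclin A, came next in both, with -3.88 and -2.50 (SE 0.20 each). In untreated 4N over 2N cells 17 substrates rose, beside 12.9% of tested genes, for example *AURKA* (1.85, SE 0.19) and *AURKB* (1.78, SE 0.18). *CDC6*, a replication licensing factor, fell by 0.94 (SE 0.08).

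**Figure D5:**
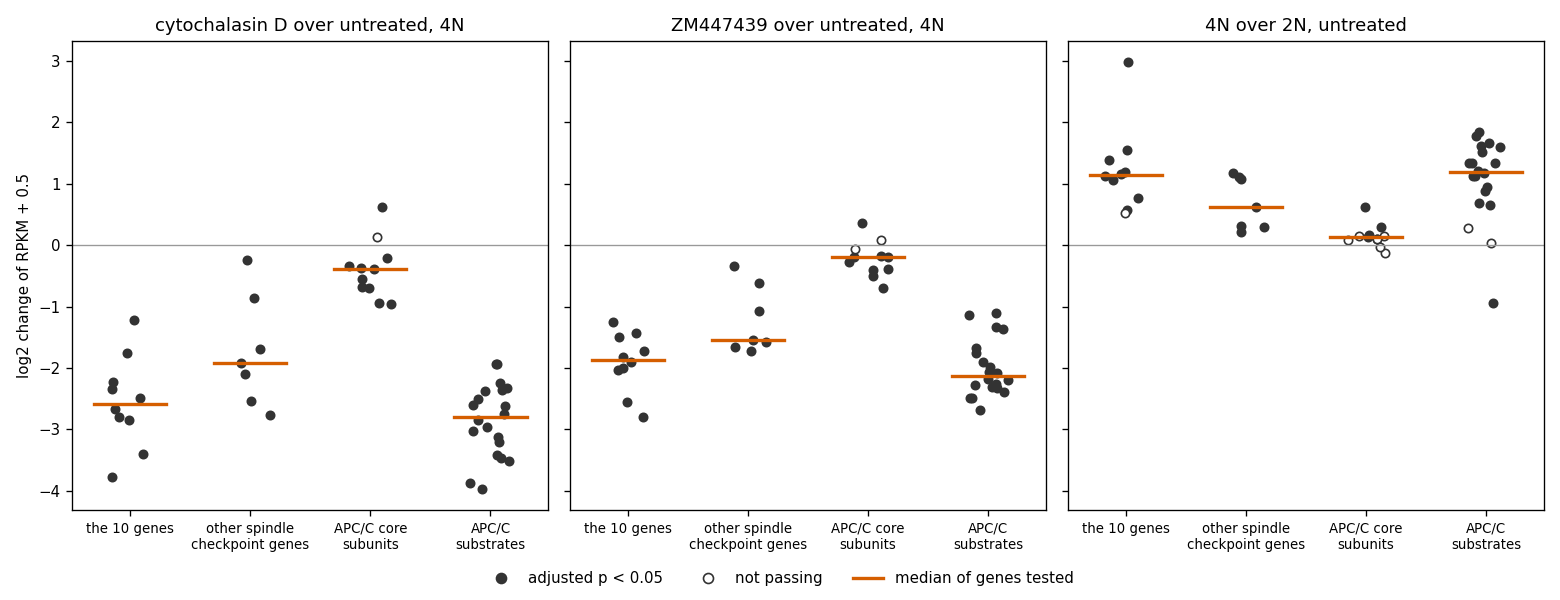
Log2 change of RPKM + 0.5 of the 10 genes and of every tested gene in 3 pathway lists, for 3 comparisons; filled points passed at adjusted p under 0.05 and orange lines are medians. Of the medians drawn, those of the APC/C core subunits lie nearest to 0 (-0.39, -0.20 and 0.13); in untreated 4N over 2N cells single substrates depart from their median, CDC6 at -0.94 and GMNN at 0.035.

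Markers of G1 and growth arrest moved in both directions. For scale, of all 13037 tested genes 3398 rose and 5793 (44.4%) fell in cytochalasin D 4N against untreated 4N cells. With ZM447439 2560 rose and 4630 (35.5%) fell. Of 12 markers listed 8 were tested. In cytochalasin D 4N against untreated 4N cells 4 rose, including *BTG2* (1.95, SE 0.41) and the CDK inhibitor gene *CDKN1A* (1.79, SE 0.54), and 3 fell, including *E2F1* by 2.26 (SE 0.07) and *CCND1* by 1.69 (SE 0.26). In ZM447439 4N against untreated 4N cells 4 rose, *CDKN1A* by 1.98 (SE 0.54) and *BTG2* by 1.94 (SE 0.41), and 2 fell, *E2F1* by 1.02 (SE 0.07) and *CCND1* by 0.81 (SE 0.26). Their part in the fall of the 10 genes was not tested.

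The genes whose centred log2 profile over the 18 libraries lay closest to each of the 10 were found by root mean square difference. *TTK* was closest to *CENPE* (0.055), *BUB1B* to *RACGAP1* (0.068), *BUB1* to *DLGAP5* (0.072) and *FBXO5* to *SUV39H1* (0.088). *MAD2L1* was closest to *TMPO* (0.12), *CDC20* to *PLK1* (0.17), *PTTG1* to *FOXM1* (0.20) and *UBE2C* to *TOP2A* (0.25). *UBE2S* lay closest to its own pseudogenes *UBE2SP2* and *UBE2SP1* (0.11 each), with which it may share reads. *FZR1* was closest to *UBALD2* (0.16), a distance to be read against its own root mean square of 0.49, the lowest of the 10, whereas *CDC20* had 1.64. None of the 20 genes nearest to *FZR1* was among the 10, and the same held for *UBE2C*, *FBXO5*, *MAD2L1*, *BUB1B* and *TTK*.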

How the data were processed

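Polyadenylated RNA was sequenced from 18 libraries in 6 groups of 3 (unstranded kit, per the labels). The deposited table holds RPKM made by the authors; per the submitters' processing notes the tools included CASAVA 1.8.2, TopHat2 and edgeR with hg19. For the counting program nothing is stated (not given in the sources used here). With genomic span as length, 89.2% to 89.8% of low values were whole reads (within 0.05 of a whole number, under 200 reads), against 9.24% to 10.2% with exon length, so depth was recovered; because library sizes were themselves estimated, no count test was run. Symbols were matched for 52338 identifiers (90.6%).

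Values were tested as log2(RPKM + 0.5) with limma 3.58.1 (R 4.3.3, trend, all 6 groups in 1 fit, 12 residual degrees of freedom) on 13037 genes (22.6%), Benjamini-Hochberg adjusted over all of them, and the scripts were tested on simulated data. The 3 replicates are biological per the series design; the labels do not describe the cultures further. Same-numbered 4N and 2N libraries of a treatment deviated together (r = 0.192 to 0.632 over genes in all 9 pairs). Differently numbered pairs gave r = -0.541 to 0.385. Some exceeded the same-numbered pair, as did untreated 4N 2 with 2N 1 (0.258, against 0.192 for 2N 2). These values do not establish that the numbers pair the sorts within a treatment. The replicate block and the ratios by replicate number assume it. Named genes were the 10 members, the 2 most changed genes of each list that passed in a direction, and the nearest profiles. The members and lists were chosen with earlier results of these data known. Alternatives were another pseudocount, no filter, RPM, median-ratio rescaling, a replicate block, own groups only, leaving out each replicate and leaving out 6 libraries. RPM with the block was added after seeing the data.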

Additional observations from a re-analysis of the deposited data

Results flagged for a closer look

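In 12 cases the difference between the 4N over 2N change under a drug and that in untreated cells passed the interaction test. With cytochalasin D the values (log2) were -1.81 for *UBE2C*, -0.79 for *UBE2S*, -1.32 for *FZR1*, -0.72 for *BUB1*, -0.87 for *BUB1B* and -1.32 for *TTK*. With ZM447439 they were -1.70 for *UBE2C*, -1.26 for *FZR1*, 1.01 for *PTTG1*, -0.54 for *FBXO5*, -0.57 for *BUB1B* and -1.15 for *TTK*. Each stands out because the effect of the sort differed between treatments. On RPM those of *BUB1*, *BUB1B*, *TTK* and *FBXO5* did not pass without the replicate block; with it, those of *TTK* (both drugs) and *FBXO5* passed.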

How the results depend on the processing

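Of 2140 recomputed values of single genes, 1980 kept their direction and their side of the threshold, 89 lost the call, 45 gained it and 26 changed sign. All 10 genes stayed lower in either drug's 4N cells than in untreated 4N cells in every alternative run. Counts of the 10 genes passing moved by over 1.5 times as follows. Without the 6 libraries 9 passed for 4N over 2N under cytochalasin D (0 with all), 7 for cytochalasin D against ZM447439 in 2N cells (4), 10 for the cytochalasin D interaction with untreated (6) and 7 for that between the drugs (0). On RPM 3 passed in each interaction with untreated (6 each). With own groups only 0 passed for 4N over 2N under ZM447439 (8) and 2 for the drugs in 2N cells, as with no filter (2). RPM with the replicate block gave 1 under cytochalasin D. Leaving out 1 replicate at a time gave 5 to 9 for 4N over 2N under ZM447439, 2 to 5 for the drugs in 2N cells, 3 to 7 for the ZM447439 interaction, 5 to 6 for the cytochalasin D interaction, 0 to 2 for that between the drugs and 9 throughout for untreated 4N over 2N. The replicate block gave 7 under ZM447439, 7 for the cytochalasin D and 4 for the ZM447439 interaction; beyond the calls named above it changed none within a treatment. Between treatments same-numbered libraries did not all deviate together (r = -0.206 to 0.523), and the number as a block there changed only the call of *TTK* in ZM447439 4N against untreated 2N cells.

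Values that changed sign did not pass with all libraries. Ranges on leaving out 1 library were -0.002 to 0.026 for *FZR1* in ZM447439 against untreated 2N cells, -0.005 to 0.043 for *FZR1*, drug against drug in 4N cells, -0.397 to 0.197 for *CDC20* and -0.246 to 0.234 for *PTTG1*, drug against drug in 2N cells, -0.122 to 0.366 for *UBE2C* in ZM447439 4N against untreated 2N cells, -0.255 to 0.085 for the *CDC20* interaction with cytochalasin D, -0.191 to 0.150 for that of *MAD2L1* with ZM447439 and -0.403 to 0.164 for that of *UBE2C* between the drugs. Without the 6 libraries, in the same order, *FZR1* (drugs, 4N) had -0.001, *PTTG1* 0.123, *UBE2C* -0.076, the *CDC20* interaction 0.276 and the *MAD2L1* interaction 0.314 (these 2 passing), and the *BUB1* interaction with ZM447439 0.080. With a pseudocount of 0.1 and on RPM, with or without the block, the interactions were 0.059 and 0.082 for *MAD2L1* and 0.126 and 0.335 for *BUB1* with ZM447439, and 0.023 and 0.017 for *UBE2C* between the drugs. The cause of each was not tested. Genes passing for ZM447439 4N over 2N among all tested numbered 208 to 2722 on leaving out 1 library. At 138 reads the lowest value has few counts, and ratios of genes under 0.5 RPKM carry that limit. Rescaling moved libraries by -0.084 to 0.10 on the log2 scale.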
